A study of Mus musculus with 16 samples.

Results

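A set of 9 genes that mark the classical and nonclassical monocyte were followed in RNA-Seq of CD11b+ brain cells, and all 9 were found by name among the 24421 rows of the count table. The 4 classical genes are Ccr2, Ly6c2, Plac8, and Vcan, and the 5 nonclassical genes are Ace, Treml4, Klf4, Klf2, and Spn. They were listed as markers of the 2 monocyte classes, when earlier results of these data were already known. All 9 passed the filter on low counts (more than 10 counts in at least 4 libraries), which kept 14565 genes for testing.

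The libraries came from female C57BL/6J mice, 1 library per mouse. CON mice (n = 4) were fed standard chow and MAL mice (n = 5) an isocaloric chow low in protein and fat for 1 month after weaning, both with gavages of saline. MAL-BG mice (n = 7) ate the MAL chow and were gavaged repeatedly with a mixture of Escherichia coli and Bacteroidales commensals. No group on standard chow received bacteria, so the bacteria were studied only on top of the MAL diet. CD11b, a myeloid integrin chain carried by microglia, monocytes, and granulocytes alike, was the only handle for the selection, which used magnetic beads on dissociated brain. The labels name cortical tissue and the methods name whole cerebra. Libraries are numbered here as the columns of the table number them, and these numbers tie to no animal and to no batch.

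Classical monocytes of the mouse carry high surface Ly6C and the chemokine receptor CCR2, leave the bone marrow in response to CCR2 ligands, and enter inflamed tissue. Nonclassical monocytes arise from them, carry low Ly6C and high CX3CR1 and CD43, depend on the nuclear receptor NR4A1, and crawl along the inside of vessels. In the healthy brain microglia far outnumber both, and monocytes are found mainly in the blood of its vessels, in the meninges, and in the choroid plexus. None of the 9 genes is a monocyte gene only. Ace is also made by endothelium and choroid plexus, Vcan by glial precursors and fibroblasts, and Klf2 and Klf4 by endothelium and by many cells as early-response genes.

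The fraction carried microglial transcripts in every library, with the summed level of 13 microglial markers between 20232 and 34098 CPM (counts relative to the scaled library size) in CON and MAL and between 41439 and 57100 CPM in MAL-BG, and none of the 13 at 0 in any group. Totals on genes were 10312703 to 13461574 counts in CON, 10864121 to 12819982 in MAL, and 14191791 to 18705202 in MAL-BG. Other cells were present too. The summed level of 10 choroid plexus markers was 10776 to 41498 CPM in CON, 5019 to 32720 CPM in MAL, and 1475 to 13187 CPM in MAL-BG, and that of 11 neutrophil markers was 485 to 1226 CPM in CON, 521 to 1092 CPM in MAL, and 591 to 13571 CPM in MAL-BG. The value of 13571 CPM belongs to MAL-BG replicate 5, and the next highest library of that group was at 3322 CPM. That library is therefore left out as well wherever a result rests on it.

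Ly6c2 cannot be read without its neighbour Ly6c1, so their sequences come first. Ly6c2 (ENSMUSG00000022584.14, GRCm38 chr15:75108158-75111970, minus strand) encodes the Ly6C antigen of myeloid cells, while Ly6c1 (chr15:75044018-75048830, minus strand) encodes the nearly identical Ly6C antigen of brain endothelium. Over 396 coding bases the main transcripts of both genes differed at 9 positions (97.7% identity). Coding bases 1 to 120 hold 6 of these differences, shown in capitals:
Ly6c1: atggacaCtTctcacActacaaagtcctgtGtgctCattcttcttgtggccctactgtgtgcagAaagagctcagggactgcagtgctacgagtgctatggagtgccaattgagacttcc
Ly6c2: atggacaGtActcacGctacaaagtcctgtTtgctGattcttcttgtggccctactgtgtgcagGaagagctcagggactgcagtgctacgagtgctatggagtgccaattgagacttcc
Of the 781 windows of 42 bases, the read length, in the main Ly6c2 transcript, 306 (39.2%) also occur in a Ly6c1 transcript, and of the 355 windows inside its coding part, 185 (52.1%) do. How the counting treated such reads is not given in the sources used here, so the levels of both genes carry this uncertainty.

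In MAL-BG against CON, 3 of the 9 genes fell and 0 rose. Ace, the angiotensin-converting enzyme, was 4.33-fold lower, Vcan, the proteoglycan versican, was 3.39-fold lower, and Treml4, a TREM-like receptor of nonclassical monocytes and splenic macrophages, was 2.06-fold lower. In MAL-BG against MAL, 4 genes fell and 0 rose, the same 3 and Ccr2, the receptor for CCL2, which was 2.03-fold lower. The genes that fell thus came from both classes, 1 of 4 classical and 2 of 5 nonclassical genes against CON and 2 of each against MAL. In MAL against CON, 0 of the 9 were called. In this bulk RNA fewer cells of a type and less RNA per cell cannot be told apart.

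Genes were called by edgeR's quasi-likelihood test at a Benjamini-Hochberg adjusted p under 0.05 over all 14565 genes and an absolute log2 fold change above 0.58. No batch term entered the model, unlike in the code of the study, since no source used here ties a library to its batch. Calls were common in general. Against CON, 21.7% of all genes were called lower and 11.4% higher, beside 33.3% and 0.0% of the 9, and against MAL 20.2% were called lower and 10.2% higher, beside 44.4% and 0.0%. In MAL against CON, 0.0% of all genes were called by edgeR or by DESeq2, with 212 genes at an unadjusted p under 0.05 by edgeR and 241 by DESeq2. The median log2 fold change of the 9 was -0.22 against CON (all genes, -0.04), -0.63 against MAL (all genes, -0.03), and 0.41 in MAL against CON (all genes, -0.02). The 3 comparisons share libraries in pairs and are not independent of each other.

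**Figure D1:**
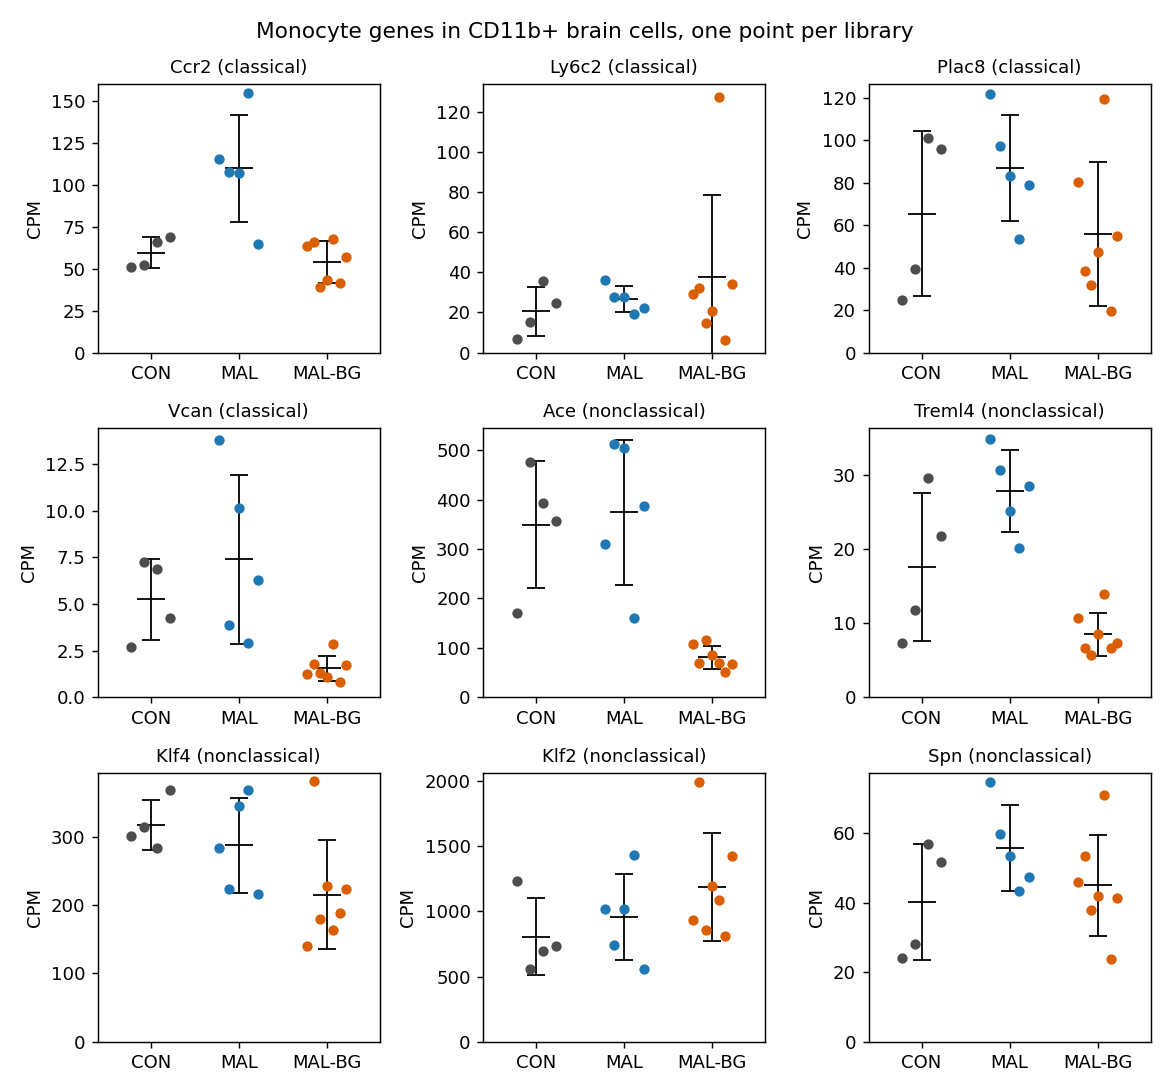
Level of each of the 9 monocyte genes in CPM (linear axis from 0), one point per library, with the mean and SD of each group in black; the lower SD limit of Ly6c2 in MAL-BG lies below 0 and is cut off. All 7 MAL-BG libraries lie below every CON and MAL library for Ace, and below every MAL library for Vcan and Treml4.

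The fold changes depended on what the libraries were scaled to, since so many genes moved. With the TMM scaling used here, calls of higher level made up 34.4% of the calls against CON and 33.4% against MAL. Equal mean log2 CPM in all libraries made these shares 57.8% and 58.3% and moved the median of all genes to 0.21 and 0.19, while equal levels of the 13 microglial markers made them 0.756% and 0.929% and moved the median to -0.86 and -0.77. Without the fold change threshold the shares were 44.0% and 45.5%. Ace, Vcan, and Treml4 were called lower in both MAL-BG comparisons, and Ccr2 against MAL, under each of these scalings. Relative to the microglial markers, 6 of the 9 were called lower against CON (Plac8, Ccr2, and Klf4 in addition). Against MAL 7 were called lower (Plac8, Klf4, and Spn in addition). Under this scaling most genes were called lower, 9064 of the 14565 tested against CON and 8315 against MAL. Whether the 9 differed from all genes in this was not tested.

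Among the classical genes, Ccr2 (ENSMUSG00000049103.14, chr9:124101950-124113557, plus strand) had a pattern of its own. CCR2 is the receptor by which monocytes follow CCL2 and related chemokines. Its level was 51.0, 52.5, 66.2, and 69.0 CPM in the CON libraries and 116, 108, 107, 155, and 64.7 CPM in the MAL libraries. In MAL-BG it ran from 39.1 to 68.1 CPM with a median of 57.1 CPM. Thus 4 of 5 MAL libraries were above every CON and MAL-BG library, and MAL replicate 5 was within the range of both. The log2 fold change was -1.02 ± 0.189 (SE) in MAL-BG against MAL (95% interval -1.42 to -0.62, adjusted p = 5.42e-04). In MAL against CON it was 0.88 ± 0.223 (interval 0.41 to 1.35, unadjusted p = 0.00101), which missed the adjusted threshold (edgeR, adjusted p = 0.999). Between MAL-BG and CON the log2 difference was -0.14 with an interval from -0.57 to 0.29 (adjusted p = 0.602).

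Chemokines that bind CCR2 were measured in the same libraries. Ccl2 was at 16.5 to 49.9 CPM in CON, 15.2 to 68.7 CPM in MAL, and 23.0 to 62.7 CPM in MAL-BG. Ccl7 was at 13.1 to 56.9 CPM, 8.68 to 56.2 CPM, and 13.3 to 45.7 CPM, and Ccl12 at 35.6 to 78.1 CPM, 32.7 to 108 CPM, and 28.1 to 46.4 CPM in the same order. The groups overlapped for each ligand and none of the 3 was called. Nearest to Ccr2 across libraries, by the correlation of log2 CPM deviations from the group means over the 16 libraries, were B3gnt8 (r = 0.889), the glutathione peroxidase Gpx1 (r = 0.862), and the neutrophil gene Stfa2l1 (r = 0.854). Libraries share depth and cell make-up, so these correlations describe these libraries and carry no test. Stfa2l1 is among the 11 neutrophil markers, and the deviations of Ccr2 ran with the mean of these markers (r = 0.70, rho = 0.72). Without the 2 libraries farthest from the median of that mean, r was 0.67. Against MAL, 10 of these 11 markers were called higher and 0 lower, while Ccr2 fell. With 5 dendritic cell markers, a list that shares 1 gene with the microglial list, r was 0.58 (rho = 0.53, and r = 0.50 without the 2 farthest libraries). Of these 5, 4 were called lower against MAL and 0 higher. With 8 lymphocyte markers r was 0.54 (rho = 0.61), and 5 were called higher and 1 lower against MAL. Lists outside the immune cells gave values of like size. With 17 early-response genes r was 0.53 (rho = 0.49, and r = 0.36 without the 2 farthest libraries), and 11 were called lower and 1 higher against MAL. With 5 fibroblast markers r was 0.50 and with 10 choroid plexus markers -0.56 (0.41 and -0.35 without the 2 farthest libraries). The part of any of these cell types or of the early response in the Ccr2 result was not tested. Without MAL-BG replicate 5, the library with the most neutrophil transcripts, the log2 fold change of Ccr2 against MAL was -1.10.

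Ly6c2 varied widely in MAL-BG, where 1 library stood far above the others, and in CON. It was at 6.91, 15.0, 35.6, and 24.6 CPM in CON and at 36.0, 27.7, 27.6, 19.2, and 22.5 CPM in MAL. In MAL-BG the lowest library was at 6.42 CPM, the median at 29.1 CPM, and the highest, replicate 5, at 127 CPM, with the next at 34.1 CPM. The 3 groups overlapped. Its log2 fold change was 0.88 ± 0.598 against CON (interval -0.38 to 2.14, adjusted p = 0.241) and 0.51 ± 0.545 against MAL (interval -0.64 to 1.66, adjusted p = 0.461). Without MAL-BG replicate 5 these became 0.13 (adjusted p = 0.821) and -0.23 (adjusted p = 0.652), so the direction against MAL rested on that library. Genes closest to Ly6c2 across the libraries were the glutathione reductase gene Gsr (r = 0.971), haptoglobin, Hp (r = 0.969), and the receptor gene Trem3 (r = 0.969). With the neutrophil markers its r was 0.63 and its rho 0.42, and without the 2 libraries farthest out in those markers r was 0.086. With 5 fibroblast markers r was 0.71 (rho = 0.50, and 0.63 without the 2 libraries farthest out in those markers). The fibroblast markers gave r = 0.72 for Plac8, 0.68 for Spn, and 0.52 for Treml4 (0.58, 0.50, and 0.48 without those 2 libraries). The part of neutrophils or fibroblasts in the Ly6c2 values was not tested.

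Ly6c1, the endothelial paralog, was at 47.4, 115, 131, and 212 CPM in CON, at 96.4, 116, 137, 43.8, and 113 CPM in MAL, and at 149 to 372 CPM with a median of 184 CPM in MAL-BG. All 7 MAL-BG libraries were above all 5 MAL libraries, and Ly6c1 rose against MAL by a log2 fold change of 1.09 ± 0.330 (adjusted p = 0.0134), while 0.77 ± 0.352 against CON was not called (adjusted p = 0.0849). With the microglial markers held equal, the rise against MAL was 0.34 and was not called. The summed level of 10 endothelial markers, a list that holds Ly6c1, was 714 to 2366 CPM in CON, 617 to 1712 CPM in MAL, and 1457 to 4052 CPM in MAL-BG, and the part of endothelium in this result was not tested.

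A ratio within a library is free of the scaling. The log2 ratio of Ly6c2 to Ly6c1 averaged -2.66 ± 0.544 (SD, n = 4) in CON, -1.86 ± 0.524 (n = 5) in MAL, and -2.97 ± 1.48 (n = 7) in MAL-BG, where it ran from -4.64 to -0.48. No difference between groups passed a two-sided exact permutation test (p = 0.712 for MAL-BG against CON, p = 0.141 against MAL, and p = 0.0714 for MAL against CON, or 0.712, 0.212, and 0.212 adjusted over the 3). Without MAL-BG replicate 5, which had the ratio of -0.48, the exact p against MAL was 0.0195 before adjustment, and without CON replicate 3 that of MAL against CON was 0.0357.

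Plac8 (ENSMUSG00000029322.12, chr5:100553725-100572245, minus strand), which codes for a small cysteine-rich protein abundant in myeloid cells, was at 24.9, 39.3, 101, and 96.0 CPM in CON and at 122, 97.5, 83.2, 53.7, and 78.9 CPM in MAL. In MAL-BG it ran from 19.7 to 119 CPM with a median of 47.4 CPM. CON replicates 1 and 2 were low and replicates 3 and 4 high, and MAL-BG spanned both. The log2 differences were -0.22 ± 0.427 against CON (interval -1.12 to 0.68, adjusted p = 0.696) and -0.63 ± 0.398 against MAL (interval -1.47 to 0.21, adjusted p = 0.204). Without MAL-BG replicate 5, again the highest library, Plac8 was called lower than in MAL (-0.95, adjusted p = 0.0460).

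Vcan (ENSMUSG00000021614.16, chr13:89655312-89742509, minus strand) codes for versican, a large proteoglycan that binds hyaluronan and that classical monocytes produce. It had the fewest reads of the 9, 14 to 162 counts per library. Its level was 2.69, 7.24, 6.86, and 4.24 CPM in CON and 13.8, 3.88, 10.2, 2.90, and 6.29 CPM in MAL. In MAL-BG the range was 0.832 to 2.87 CPM with a median of 1.31 CPM. Of the 7 MAL-BG libraries, 6 were under every CON library and all 7 under every MAL library. Versican changed by a log2 fold change of -1.76 ± 0.417 (SE) against CON (adjusted p = 0.00293) and of -2.25 ± 0.397 against MAL (adjusted p = 3.77e-04). Its nearest genes across libraries were Gpr141 (r = 0.790), the guanine deaminase gene Gda (r = 0.775), and the clotting factor gene F10 (r = 0.763). Gda and F10 also stand on the list of other classical monocyte genes.

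Among the nonclassical genes, Ace (ENSMUSG00000020681.14, chr11:105967945-105989964, plus strand) changed most. ACE cuts angiotensin I to angiotensin II. In CON it was at 171, 476, 394, and 357 CPM and in MAL at 309, 512, 505, 160.4, and 387 CPM. The 7 MAL-BG libraries ran from 51.4 to 115 CPM with a median of 69.8 CPM. Every MAL-BG library was under every other library. Ace was the only 1 of the 9 without overlap against CON, where 21.0% of all genes had none. Against MAL this held for 3 of the 9 (Ace, Vcan, Treml4) where 16.8% of all genes had no overlap, and in MAL against CON for 0 of the 9 where 0.714% had none. The log2 fold change of Ace was -2.11 ± 0.297 against CON (interval -2.74 to -1.49, adjusted p = 7.29e-05) and -2.21 ± 0.285 against MAL (interval -2.82 to -1.61, adjusted p = 4.00e-05). The antisense gene Gm11651 overlaps 295 exonic bases of Ace and had 4, 9, and 1 counts in all of CON, MAL, and MAL-BG.

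Ace followed the transcripts of several non-myeloid cell types from library to library. Within the groups its log2 level ran with the mean of the 10 choroid plexus markers (r = 0.83, rho = 0.91, and r = 0.84 without the 2 libraries farthest from the median of the markers), with 6 mural cell markers (r = 0.82), with 6 oligodendrocyte precursor markers (r = 0.80), with 10 endothelial markers (r = 0.79), with 6 astrocyte markers (r = 0.78), and with 8 neuronal markers (r = 0.73). Without the 2 libraries farthest out in each list, r was 0.71, 0.79, 0.70, 0.69, and 0.48 in the same order. With 5 fibroblast markers r was 0.48 (0.44 without the 2 farthest) and with 6 oligodendrocyte markers 0.26 (0.63 without them). Ace ran against the 13 microglial markers (r = -0.70, and -0.59 without the 2 farthest). It also ran against 8 border macrophage markers (r = -0.72, and -0.24 without the 2 farthest). Choroid plexus markers fell in MAL-BG in 10 of 10 cases against CON and in 9 of 10 against MAL, under each scaling at least 9. Of the 10 endothelial markers, 3 were called higher against CON, 4 against MAL, and 0 lower, while with equal microglial markers 0 were called higher and 1 lower against CON. The genes nearest to Ace were the growth hormone receptor gene Ghr (r = 0.967), the integrin gene Itga3 (r = 0.957), and Tpd52l1 (r = 0.956). The part of any of these cell types in the Ace result was not tested.

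**Figure D2:**
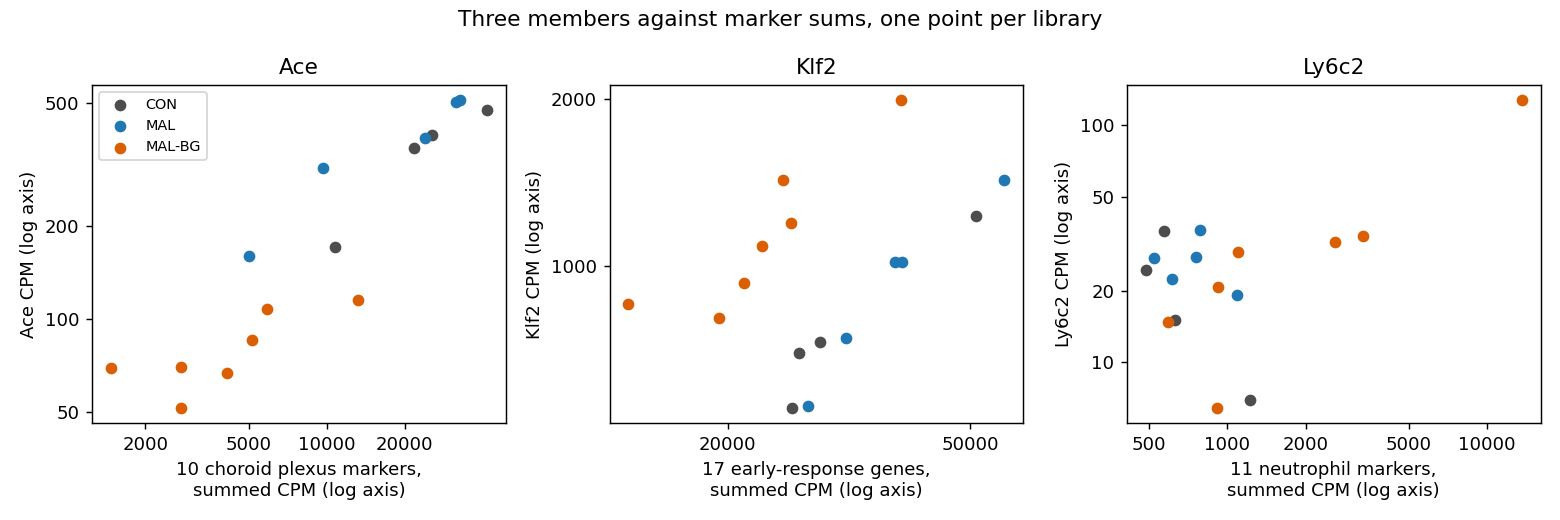
Ace, Klf2, and Ly6c2 in CPM against the summed CPM of 10 choroid plexus markers, 17 early-response genes, and 11 neutrophil markers (both axes on log scales), one point per library and one color per group. Ace rises with the choroid plexus sum, Klf2 rises with the early-response sum within each group, and the highest Ly6c2 value, 127 CPM, is the library with the highest neutrophil sum, 13571 CPM.

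Treml4 (ENSMUSG00000051682.15, chr17:48264295-48275360, plus strand) was at 7.29, 11.8, 29.6, and 21.7 CPM in CON and at 34.9, 30.7, 25.2, 20.1, and 28.5 CPM in MAL. Across MAL-BG its range was 5.72 to 13.9 CPM with a median of 7.27 CPM. All 7 MAL-BG libraries were under every MAL library, while CON spanned both groups. Its log2 fold change was -1.71 ± 0.291 against MAL (adjusted p = 2.96e-04) and -1.05 ± 0.308 against CON (adjusted p = 0.0113). Without CON replicate 3, the highest of that group, the log2 fold change against CON was -0.69 and was no longer called (adjusted p = 0.0931). In MAL against CON the log2 difference was 0.66 (interval -0.05 to 1.37, adjusted p = 0.999). Closest to Treml4 were Adgre4, which codes for the adhesion receptor EMR4 of nonclassical monocytes (r = 0.940), Plac8 itself (r = 0.908), and Arhgef37 (r = 0.903).

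Klf2 and Klf4 code for zinc finger transcription factors that respond to shear stress and to acute stimuli, and Klf4 is needed for monocyte development. Klf4 (ENSMUSG00000003032.8, chr4:55527143-55532466, minus strand) was at 302, 315, 284, and 369 CPM in CON and at 285, 223, 346, 369, and 217 CPM in MAL. In MAL-BG it ran from 141 to 382 CPM with a median of 188 CPM. Of the 7 MAL-BG libraries, 6 were under every CON library, and replicate 2 with 382 CPM was over all of them. The log2 difference from CON was -0.56 ± 0.222 (interval -1.03 to -0.09), with an adjusted p of 0.0495 but a size just short of the threshold of 0.58. Without MAL-BG replicate 2 it was -0.70 (adjusted p = 0.00452) and was called. Against MAL the difference was -0.42 ± 0.210 (interval -0.86 to 0.02, adjusted p = 0.113).

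Klf2 (ENSMUSG00000055148.7, chr8:72319033-72321656, plus strand) was at 1232, 556, 699, and 731 CPM in CON and at 1019.9, 744, 1018, 1430.0, and 561 CPM in MAL. The MAL-BG libraries reached from 807 to 1991 CPM with a median of 1088 CPM. CON replicates 2, 3, and 4 lay under all MAL-BG libraries, and CON replicate 1 lay inside their range. The log2 difference was 0.56 ± 0.287 from CON (interval -0.05 to 1.16, adjusted p = 0.122) and 0.31 ± 0.264 from MAL (interval -0.25 to 0.87, adjusted p = 0.349). Without CON replicate 1 Klf2 was called higher than in CON (0.82, adjusted p = 0.0298), and the same call was made with equal mean log2 CPM (0.78, adjusted p = 0.0480), while with equal microglial markers its sign was negative (-0.20 against CON and -0.39 against MAL).

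Both factors moved from library to library with the early-response genes, a list of 17 genes such as Fos, Jun, and Egr1 that dissociation of tissue can induce. Within the groups r was 0.91 for Klf2 (rho = 0.95, and 0.94 without the 2 farthest libraries) and 0.67 for Klf4 (rho = 0.68, and 0.51 without them). The nearest genes to Klf2 were Btg2 (r = 0.958), Mepce (r = 0.944), and Junb (r = 0.939), and those to Klf4 were Zfp870 (r = 0.855), Top1 (r = 0.843), and Arid1b (r = 0.836). Btg2 and Junb stand on the early-response list. Of that list, 9 genes were called lower and 0 higher against CON, and 11 lower and 1 higher against MAL, with the largest changes against CON in Socs3, Fosb, and Nr4a1. With equal microglial markers 16 of the 17 were called lower in each of these comparisons. Its summed level was 25452 to 50997 CPM in CON, 27052 to 56823 CPM in MAL, and 13744 to 38460 CPM in MAL-BG, and CON replicate 1, the highest in Klf2, was also the highest of CON in this sum. The part of the early response in the Klf2 and Klf4 values was not tested.

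Spn (ENSMUSG00000051457.7, chr7:127132232-127137823, minus strand), which codes for the sialoglycoprotein CD43, was at 24.0, 28.0, 56.9, and 51.9 CPM in CON and at 74.9, 59.7, 53.6, 43.3, and 47.5 CPM in MAL. The range in MAL-BG was 23.9 to 71.0 CPM with a median of 41.8 CPM, so that the 3 groups overlapped. The log2 difference was 0.16 ± 0.268 from CON (interval -0.40 to 0.73, adjusted p = 0.640) and -0.31 ± 0.247 from MAL (interval -0.83 to 0.21, adjusted p = 0.323). Nearest to Spn were the hyaluronan receptor gene Cd44 (r = 0.954), Pilrb2 (r = 0.949), and Itgal (r = 0.932), the alpha chain of the leukocyte integrin LFA-1.

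**Figure D3:**
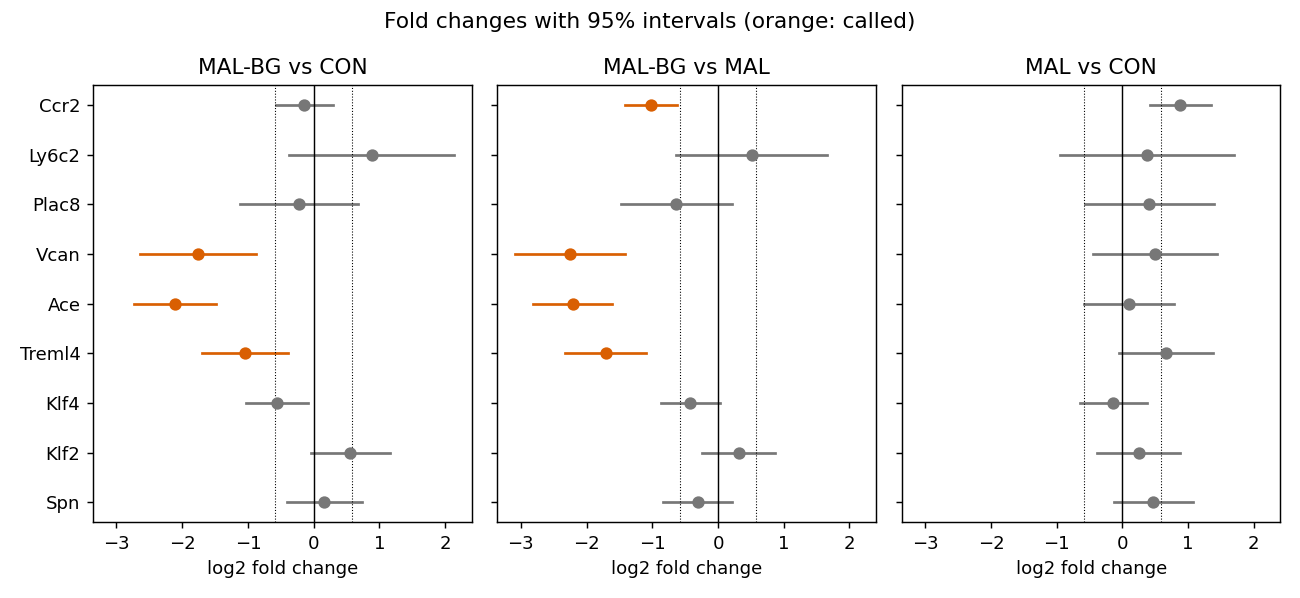
Log2 fold change of each monocyte gene in the 3 comparisons (points) with its 95% interval (lines), dotted lines at the threshold of 0.58 in either direction, and called genes in orange. The called genes, 3 against CON and 4 against MAL, lie to the left of 0, and in MAL against CON the interval of Ccr2, from 0.41 to 1.35, lies to the right of 0 without a call.

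In their variation from library to library the 9 genes did not group by class. Over the 36 pairs, the correlation of deviations from the group means ran from -0.60 to 0.91. Ly6c2, Plac8, Spn, and Treml4, which come from both classes, formed the 6 pairs of highest r, 0.77 to 0.91 (rho 0.81 to 0.94), and these pairs were at 0.72 to 0.91 without MAL-BG replicate 5. Klf2 and Klf4 were correlated with each other (r = 0.72) and Ace ran against Klf2 (r = -0.60, and -0.31 without the 2 libraries farthest from the median of Ace). The same libraries recur. CON replicate 1 was the lowest of its group for Ccr2, Ly6c2, Plac8, Vcan, Ace, Treml4, and Spn, and the highest for Klf2, MAL replicate 1 was the highest of its group for Ly6c2, Plac8, Vcan, Treml4, and Spn, and MAL-BG replicate 5 the highest of its group for those 5 and for Ccr2.

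**Figure D4:**
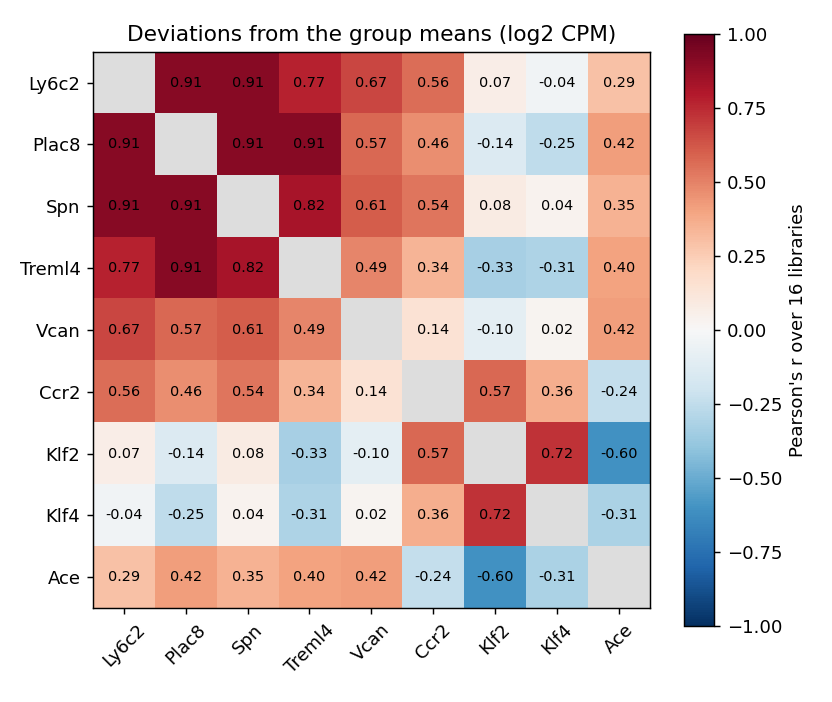
Pearson's r between the 9 monocyte genes, computed on log2 CPM after subtracting each group's mean, over 16 libraries (color from -1 to 1, value printed in each cell). Ly6c2, Plac8, Spn, and Treml4 form a block with r from 0.77 to 0.91, and Klf2 with Klf4 another pair at 0.72.

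On a scale per length, CPM per kb of merged exons, the genes differed widely in CON. Klf2 stood first with a mean level of 436 CPM per kb, followed by Klf4 (104), Ace (66.1), Plac8 (41.0), Ccr2 (8.83), Treml4 (8.82), Spn (8.58), Ly6c2 (7.50), and Vcan (0.363). Klf2 and Klf4 did not overlap, and neither did Klf4 and Ace, whereas Ace and Plac8 did, and Ccr2, Treml4, Spn, and Ly6c2 could not be ordered beyond their spread. In MAL-BG the mean level of Ace was 15.3 CPM per kb, under that of Plac8 at 35.2, and Treml4 at 4.26 stood under Ccr2 at 8.02. Merged exons count every annotated isoform, which lowers the level of genes with long rare isoforms.

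Promoters of 3 of the genes are shown because their transcripts moved together across libraries, Klf2 with Klf4 and Ly6c2 with Plac8, Spn, and Treml4. They run from 250 bases before to 50 bases after the annotated start, from RefSeq (GRCm38.p6), at chr8:72318812-72319111 on the plus strand, chr4:55532426-55532725 on the minus strand, and chr15:75111922-75112221 on the minus strand. Capitals mark a match to any of 5 motifs searched on both strands, none of which contains another:
Klf2: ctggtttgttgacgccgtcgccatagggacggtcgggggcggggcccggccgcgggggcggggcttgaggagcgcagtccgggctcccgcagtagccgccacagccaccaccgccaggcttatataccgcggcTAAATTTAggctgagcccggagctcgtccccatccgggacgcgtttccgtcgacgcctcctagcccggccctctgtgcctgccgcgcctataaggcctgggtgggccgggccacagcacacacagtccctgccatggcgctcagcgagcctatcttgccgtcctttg
Klf4: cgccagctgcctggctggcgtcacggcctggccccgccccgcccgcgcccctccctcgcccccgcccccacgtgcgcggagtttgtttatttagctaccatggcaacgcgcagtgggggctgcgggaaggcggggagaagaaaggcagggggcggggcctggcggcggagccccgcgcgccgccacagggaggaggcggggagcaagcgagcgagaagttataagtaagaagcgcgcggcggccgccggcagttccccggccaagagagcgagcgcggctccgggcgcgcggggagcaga
Ly6c2: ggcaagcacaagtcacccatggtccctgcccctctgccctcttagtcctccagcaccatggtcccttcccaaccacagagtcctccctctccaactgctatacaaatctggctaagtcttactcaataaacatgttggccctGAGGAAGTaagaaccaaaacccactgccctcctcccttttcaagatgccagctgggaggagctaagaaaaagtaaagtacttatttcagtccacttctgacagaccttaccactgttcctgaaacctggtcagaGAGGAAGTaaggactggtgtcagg
The motifs were chosen after these promoters had been looked at. An ETS core of the PU.1 type (GAGGAAGT) occurs in 3.28% of 27025 promoters and, of the 9 genes, in Ly6c2 alone. A MEF2-like element (TAAATTTA) occurs in 0.570% of promoters and in Klf2 alone of the 9. A KLF box (GGGTGTG) is in 7.85% of promoters and in those of Plac8 and Ace, a TATA box (TATAAA) in 14.2% and in that of Ace, and the cAMP element TGACGTCA in 1.88% and in 0 of the 9. These are matches of letters and say nothing of binding.

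Other genes of the classical program gave the following calls, and the list was not tested against all genes. Of 15 tested, 1 was called higher and 2 lower against CON, and 0 higher and 3 lower against MAL. Of all genes, 11.4% were called higher and 21.7% lower against CON, and 10.2% and 20.2% against MAL. These shares belong to the main scaling and apply to the lists below as well. With equal microglial markers, 9064 of the 14565 genes tested were called lower and 69 higher against CON. Against MAL 8315 were called lower and 78 higher in that setting. With equal mean log2 CPM, 2403 were called lower and 3298 higher against CON. List counts under these scalings are to be read beside these numbers. The matrix protein gene Thbs1 (log2 fold change -2.09 ± 0.402, adjusted p = 6.79e-04) and F13a1, a clotting factor subunit (-0.75 ± 0.280, adjusted p = 0.0376), fell against CON, and the calcium-binding protein gene S100a6 rose (0.99 ± 0.378, adjusted p = 0.0424). Without MAL-BG replicate 5 the counts were 0 higher and 4 lower against CON and 0 higher and 6 lower against MAL. With equal mean log2 CPM they were 3 higher and 1 lower against CON, and with equal microglial markers 0 higher and 7 lower.

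The nonclassical program was split. Of 12 genes tested, 3 were called higher and 5 lower against CON, and 2 higher and 7 lower against MAL, and these counts were the same without MAL-BG replicate 5. Nr4a1, the nuclear receptor that nonclassical monocytes need and also an early-response gene, was at 881 to 1153 CPM in CON, 644 to 937 CPM in MAL, and 183 to 705 CPM in MAL-BG, and fell by 1.34 on the log2 scale against CON (SE 0.248, adjusted p = 5.11e-04). Cd300e, an activating receptor of monocytes, fell by 1.59 (SE 0.321, adjusted p = 9.73e-04). Cx3cr1, the fractalkine receptor, which microglia also express at high level, was at 2383 to 4359 CPM in CON, 2695 to 5489.8 CPM in MAL, and 4613 to 11430.0 CPM in MAL-BG, and rose by 1.33 (SE 0.271, adjusted p = 0.00105). The antibacterial protein gene Pglyrp1, which neutrophils express as well, rose by 1.82 (SE 0.409, adjusted p = 0.00208). With equal microglial markers 1 of the 12, Cx3cr1, was called higher and 9 lower against CON. Cx3cr1 is itself on the microglial list whose mean set this scaling, so that call is not independent of the scaling. With equal mean log2 CPM 3 of the 12 were called higher and 3 lower against CON.

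Among 15 tested genes of monocyte recruitment, 4 were called lower and 1 higher in each MAL-BG comparison. Icam1, the endothelial and myeloid adhesion molecule, fell by 2.09 on the log2 scale against CON (SE 0.239, adjusted p = 1.39e-05), and the growth factor gene Csf1 fell by 1.61 (SE 0.229, adjusted p = 7.60e-05). Selplg, the ligand of P-selectin, rose by 1.13 (SE 0.194, adjusted p = 3.03e-04), and with equal microglial markers it was not called and 11 of the 15 were called lower and 0 higher against CON, and 6 lower and 0 higher against MAL. Of 6 tested other CC receptors, Ccrl2 (-1.93 ± 0.230, adjusted p = 2.02e-05) and Ccr7 (-1.64 ± 0.330, adjusted p = 9.39e-04) fell against CON and 0 rose, and both were also called lower against MAL, while with equal mean log2 CPM 1 of the 6 was called higher against CON.

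The families of the single members gave the following counts. Of 13 lecticans and versican partners tested, 4 were called lower and 0 higher against CON, led by the link proteins Hapln4 (-2.92 ± 0.629) and Hapln1 (-2.22 ± 0.702) and by neurocan, Ncan (-2.35 ± 0.415). Cd44, the hyaluronan receptor, was not called (-0.08 ± 0.302, adjusted p = 0.853). These 3 leading genes are made by neurons and glia. Of the neuronal markers 8 of 8 and of the astrocyte markers 5 of 6 were called lower against CON. The part of these cell types in the fall of the 3 genes was not tested. Of 6 renin-angiotensin genes tested besides Ace, the aminopeptidase gene Lnpep fell against CON (-1.15 ± 0.267, adjusted p = 0.00252) and 0 rose, while 1 was called higher and 1 lower with equal mean log2 CPM or without MAL-BG replicate 5. With equal microglial markers 10 of the 13 lecticans and partners were called lower against CON and 0 higher. Of the 6 renin-angiotensin genes 5 were called lower and 0 higher. In that setting 9064 of all 14565 genes tested were called lower and 69 higher.

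Of 6 other TREM family genes tested, Trem2 (1.29 ± 0.223, adjusted p = 3.25e-04), the lipid receptor of microglia, and Treml2 (0.94 ± 0.226, adjusted p = 0.00337) rose against CON and 0 fell, but with equal microglial markers 0 were called higher and 1 lower, and with equal mean log2 CPM 4 higher and 0 lower. Of 12 other KLF genes tested, 5 were called lower and 0 higher against CON, with the largest changes in Klf15 (-1.86 ± 0.437), Klf10 (-1.74 ± 0.108), and Klf12 (-1.41 ± 0.259). With equal microglial markers 8 of these 12 were called lower and 0 higher, and with equal mean log2 CPM 3 lower and 1 higher. Of 7 endothelial targets of KLF2 and KLF4, Ptgds (-1.68 ± 0.360, adjusted p = 0.00145) and thrombomodulin, Thbd (-0.95 ± 0.295, adjusted p = 0.0156), were called lower against CON and 0 higher. The fold change of 5 of the 7 was positive in each MAL-BG comparison, and against MAL 1 was called higher and 1 lower. With equal mean log2 CPM 0 were called higher and 2 lower against CON, and 4 higher and 1 lower against MAL. With equal microglial markers 0 were called higher and 2 lower in each of these comparisons. Ptgds is also abundant in choroid plexus and meninges. Of 10 LY6 family genes tested, 3 were called higher and 2 lower against CON, the fallen ones being the neuronal genes Lynx1 (-1.88 ± 0.356) and Ly6h (-1.47 ± 0.425) and the largest rise that of Ly6d (1.19 ± 0.390), while with equal microglial markers 0 were called higher. In MAL against CON, 0 genes of any of these lists were called by edgeR.

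Further cell types that the CD11b fraction could hold gave these counts against CON. Of 8 border macrophage markers, 0 were called, and of 5 dendritic cell markers tested 2 were called lower. Lymphocyte markers were called higher in 5 of 8 and neutrophil markers in 10 of 11, with 0 lower. Of 5 fibroblast markers 0 were called, of 6 mural markers 1 was called lower, of 6 oligodendrocyte precursor markers 2 were called lower, and of 6 oligodendrocyte markers 3 were called higher. The 4 globin genes on the erythroid list were at 0 in all groups, and Alas2, the only one of that list tested, was called higher. As for Ly6c1 and Ly6c2, how the counting treated reads shared by similar genes is not given. The zeros are therefore no measure of blood in the fraction. Without MAL-BG replicate 5 there were 2 fibroblast, 3 oligodendrocyte precursor, and 3 dendritic cell markers called lower. With equal microglial markers 6 of 8 border macrophage, 4 of 5 dendritic cell, 2 of 5 fibroblast, 2 of 6 mural, 4 of 6 oligodendrocyte precursor, and 1 of 6 oligodendrocyte markers were called lower and 0 of these higher, with 2 of 8 lymphocyte markers higher and 2 lower, 9 of 11 neutrophil markers higher and 1 lower, and Alas2 not called.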

How the data were processed

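Counts from RNA-Seq of CD11b+ brain cells were analyzed for the 16 libraries of the 3 groups. The authors prepared stranded poly(A) libraries, used STAR for alignment of the paired reads to GRCm38.p6 and HTSeq for counting per gene, and deposited raw counts. The strand option, counting mode, and annotation are not given in the sources used here. Columns name the group and a running number that matches no sample title, so no library could be tied to a batch. The code of the study models a batch term beside the condition. The fits here lack that term, so their standard errors and p-values do not account for batch.

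The filter kept rows that exceeded 10 counts in 4 or more libraries. After TMM scaling, edgeR 4.0.16 (R 4.3.3) fitted a quasi-likelihood model to all groups at once, with Benjamini-Hochberg adjustment over 14565 genes. CPM refers to the scaled sizes, log2 CPM used a prior count of 2, and 95% intervals came from the same fit. Ratios were compared by exact permutation tests (SciPy 1.17.1). Positions and merged exon lengths came from GENCODE for GRCm38. Errors are those between mice, at the library totals given.

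The 9 genes and all gene lists were chosen with earlier results of these data known. Named were the 9 genes, Ly6c1, Nr4a1, Cx3cr1, Ccl2, Ccl7, and Ccl12, up to 3 genes per pathway list called in MAL-BG against CON with the largest change, and the 3 genes nearest to each of the 9. Cd44, Alas2, and the early-response genes given as examples are outside this rule and were chosen after their values were seen. Alternatives were other scalings, DESeq2 1.42.0 without a batch term, other filters, no fold change threshold, fits of 2 groups, thinning, length and GC offsets, and each library left out.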

Additional observations from a re-analysis of the deposited data

Results flagged for a closer look

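Over the 9 genes in 3 groups, 27 sets of values were examined for a single library far from the rest of its group, and 2 were found. A chance rate of about 1 in 20 such sets assumes normally spread values, which CPM values need not be. The sets are also not independent, since several of the 9 genes ran together across libraries. Ly6c2 in MAL-BG replicate 5 was at 127 CPM, with the next highest library of the group at 34.1 CPM, a gap of 0.772 of the whole range of 7 libraries. The same library had the highest summed neutrophil markers, 13571 CPM, and the highest Ccr2, Plac8, Vcan, Treml4, and Spn of its group. Klf4 in MAL-BG replicate 2 was at 382 CPM, with the next highest at 229 CPM, a gap of 0.634 of the range. That library also had the highest Klf2 of all, 1991 CPM, and the highest early-response sum of its group, 38460 CPM.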

How the results depend on the processing

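Ace, Vcan, and Ccr2 against MAL, Ace and Vcan against CON, and Treml4 against MAL kept their calls under each alternative and with each library left out. Leaving out single libraries, members called lower numbered 2 to 4 against CON and 4 to 5 against MAL, and members called higher 0 to 1 against CON, the 1 being Klf2 without CON replicate 1. Sign changes with a library left out, all in values that were not called, were Plac8 against CON (0.056 and 0.016 without CON replicates 3 and 4, range -0.55 to 0.056), Spn against CON (-0.035 without CON replicate 1 and -0.0038 without MAL-BG replicate 5, range -0.035 to 0.37), Ly6c2 against MAL (-0.23 without MAL-BG replicate 5, range -0.23 to 0.70), and Ace in MAL against CON (-0.13, -0.043, and -0.036 without CON replicate 1, MAL replicate 2, and MAL replicate 3, range -0.13 to 0.29). The log2 ratio of Ly6c2 to Ly6c1 ran from -1.53 to -0.84 against MAL, from -0.73 to -0.03 against CON, and from 0.64 to 1.07 in MAL against CON.

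With equal mean log2 CPM, all genes called higher numbered 3298 against CON and 3120 against MAL (main, 1659 and 1479), members called higher against CON numbered 1, and Ccr2 (0.12) and Plac8 (0.042) changed sign against CON. With equal microglial markers, 69 and 78 genes were called higher and 9064 and 8315 lower (main, 3161 and 2944), 6 and 7 members were called lower, and signs changed for Klf2 (-0.20) and Spn (-0.68) against CON and for Ly6c2 (-0.23) and Klf2 (-0.39) against MAL. These 2 shifts follow from the scaling itself. Without the fold change threshold 2889 and 2940 genes were called higher. Klf4 against CON was also called with upper-quartile scaling (-0.58) and with length and GC offsets (-0.60). The effects on other gene lists of the scalings and of leaving out MAL-BG replicate 5 were computed after the data were seen. No paired analysis was possible because the running numbers of the columns match no sample title and tie no library of one group to one of another.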
